A study of Sus scrofa with 6 samples.

Results

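The extracellular matrix genes of pig granulosa cells were followed here in antral follicles that were healthy (HA) or atretic (AA). They were picked by name, as every collagen chain, every laminin chain and any of 19 single matrix proteins that the deposited gene table names. The list itself was chosen with earlier results of these data known. Of the 19442 genes in the table, 52 matched, of which 32 are collagens, 6 are laminins and 14 are among the single proteins. The 52 genes were read as 13 basement membrane genes, 27 collagens outside the basement membrane (called interstitial collagens below, although some lie in cartilage or in cell membranes) and 12 glycoproteins and proteoglycans. A further 14 rows carry no name in the table and are matrix genes by a reference list of pig gene identifiers. They are given beside the others, with that source named, and enter no count of the 52.

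Mural granulosa cells were scraped from the wall of antral follicles that the study had sorted by eye into HA and advanced AA, with no treatment or genetic change in either group. The study checked the sorting by histology and cleaved caspase 3 staining of some follicles, and by AMH, IGF1 and estradiol in follicular fluid. It reports that nearly all isolated cells stained for FSHR and that CYP17A1 mRNA was below the detection limit of its qRT-PCR. Each of the 3 AA and 3 HA libraries held rRNA-depleted RNA from cells of 10 pooled follicles, and the labels state neither breed nor age. In both groups the scraped cells were joined with the fluid of the follicle, which in AA follicles held loose dying granulosa cells. The comparison of AA with HA libraries asks how the content of matrix transcripts differs with atresia, and p-values measure the spread between pools.

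The follicle wall has a basement membrane between the granulosa layer and the vascular theca. Such a sheet is built from a network of collagen IV trimers and a network of laminin trimers, each of 1 alpha, 1 beta and 1 gamma chain, which nidogens and the proteoglycan perlecan bind to each other. Interstitial matrix is made of fibrils of collagens I, III and V, of fibril-associated collagens (the FACIT family, with interrupted triple helices), of elastic fibres on a fibrillin scaffold, of small leucine-rich proteoglycans that coat fibrils, and of adhesive glycoproteins such as fibronectin and the thrombospondins. Granulosa cells are epithelial-like cells that make basement membrane components, and atresia is the degeneration that ends the life of most follicles.

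The values are FPKM, fragments mapped to a transcript scaled to its length and to the size of the library, as the authors calculated them, so that levels of different genes are comparable per length. Between 10507 and 11187 genes reached 1 FPKM in a library. A gene was tested where 3 or more libraries reached 1 FPKM (11001 genes, 56.6% of the table), with limma on log2(FPKM + 1), and a log2 change below is AA minus HA on that scale, which understates the change of low genes. Genes were called at an adjusted p (Benjamini-Hochberg, over the 11001 genes) no greater than 0.05. Of the 52 matrix genes, 26 were tested. Of the other 26, 3 were listed at 0 in all 6 libraries, 17 stayed below 1 FPKM in every library and 6 reached 1 FPKM in 1 or 2 libraries.

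No matrix gene was called, and neither was any other gene (0% of the genes tested in each direction). The smallest adjusted p of limma over all genes was 0.0568, which COL12A1 and THBS1 both had. The adjustment gives this value to other genes too, among them CYP19A1, so it does not rank these 2 first. At an unadjusted p of at most 0.05, 7 of the 26 tested matrix genes were higher in AA, where 9.48% of all genes tested were, and 3 were lower, where 6.14% of all genes were. All 3 AA libraries lay above all 3 HA libraries for 8 of the 26, against 11.9% of all genes tested, and below them for 3 of the 26, against 9.1% of all genes. At an adjusted p of at most 0.1, 3 matrix genes were higher (COL12A1, THBS1 and COL9A2; 1.8% of all genes) and 1 was lower (FBN2; 0.409% of all genes). In the labels an AA and an HA library that share a number also share a date, and with the number as a block limma called 13 genes, all higher in AA, among which were COL12A1 and THBS1, each with an adjusted p of 0.0364. The block gave COL9A2 an adjusted p of 0.117 and FBN2 one of 0.1403, so that neither stayed within 0.1. Over genes, deviations of same-numbered libraries from their group means correlated at −0.29, 0.00 and −0.40, so the block is given only as an alternative.

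Library AA 2 held the highest value of 14 of the 26 tested matrix genes (53.8%), where it held the highest value of 23.5% of all genes tested, and HA 1 held the highest value of none of the 26. An AA library was highest for 22 of the 26. The median log2 change of the 26 was 0.32 and that of all genes tested 0.01. Without AA 2, the median of the 26 was 0.24, with 6 genes higher and 2 lower at an unadjusted p of at most 0.05, where 5.81% and 3.28% of all genes then tested were. In bulk RNA of this kind, a larger share of cells that express a gene and more of its RNA per cell cannot be told apart.

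**Figure D1:**
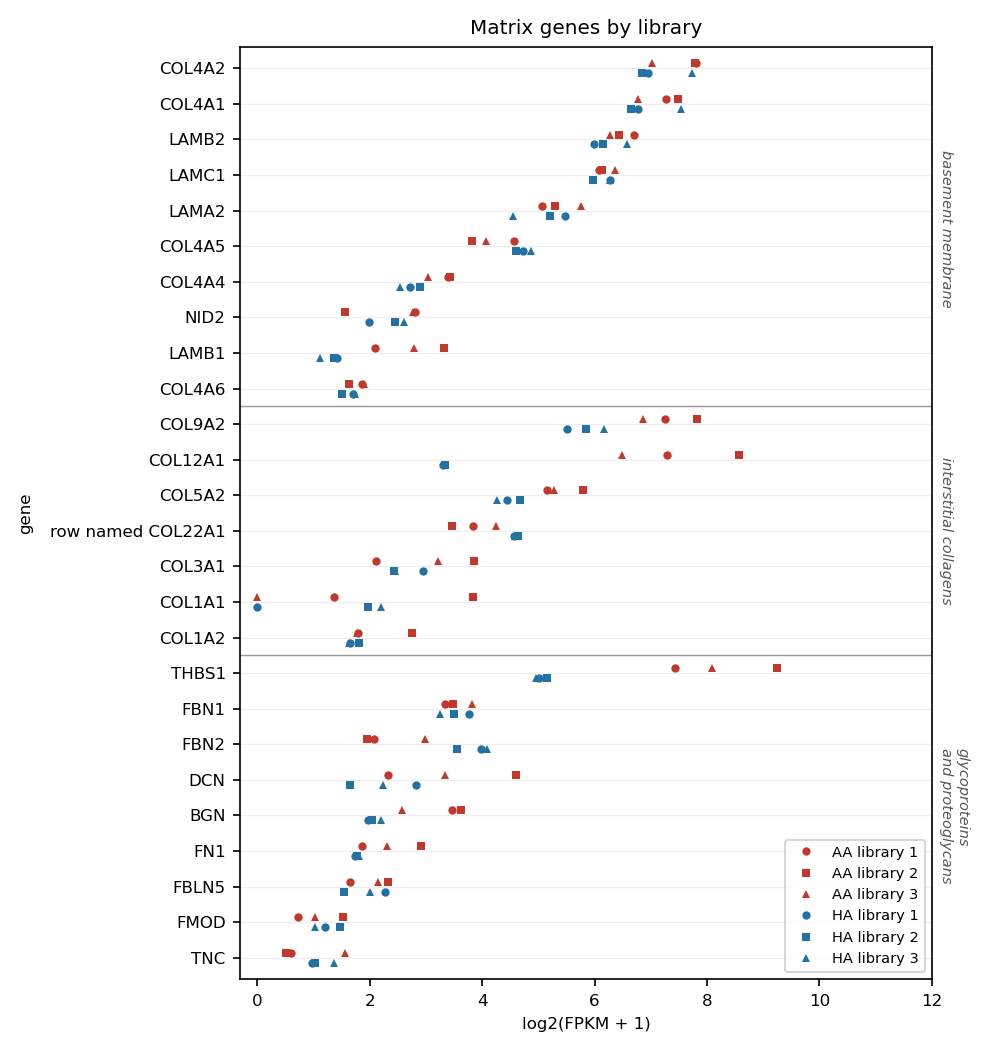
Level of the 26 tested matrix genes in each library, as log2(FPKM + 1) on the horizontal axis, with genes in order of mean FPKM within each of the 3 lists. AA libraries (red) and HA libraries (blue) have 1 marker shape per library number; the red points of COL12A1 and THBS1 lie far to the right of the blue ones, while those of COL4A1, LAMC1 and FBN1 are intermixed.

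Most basement membrane genes overlapped between AA and HA libraries, the most abundant ones included. Of the 13 genes of this list 10 were tested, with a median log2 change of 0.22. At an unadjusted p of at most 0.05, 2 were higher (9.48% of all genes tested) and 1 was lower (6.14%). COL4A2 and COL4A1, which encode the chains of the collagen IV trimer found in nearly all basement membranes, lie 181 kb apart on chromosome 11 of Sscrofa10.2, the assembly of the files, and on opposite strands (COL4A1 at chr11:84373663-84432619, COL4A2 at chr11:84613773-84675898). COL4A2 was at 222, 219 and 129 FPKM in AA 1, AA 2 and AA 3 and at 123, 114 and 212 FPKM in HA 1, HA 2 and HA 3. COL4A1 was at 154, 179 and 108 FPKM in the AA libraries and at 108, 99.2 and 184 FPKM in the HA libraries. Both genes were thus high in AA 1, AA 2 and HA 3 and lower in the other 3 libraries, and the groups overlapped. The log2 change was 0.36 for COL4A2 (95% interval −0.33 to 1.04) and 0.20 for COL4A1 (−0.44 to 0.84), with adjusted p of 0.610 and 0.772.

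The minor collagen IV chains, which form other trimers in specialised basement membranes, differed from this pair. COL4A5 (chrX:103660404-103682903) was at 22.8, 13.2 and 15.9 FPKM in the AA libraries and at 25.4, 23.3 and 28.2 FPKM in the HA libraries. Every AA value was below every HA value, with a log2 change of −0.57 (SE 0.23, adjusted p = 0.287). COL4A4 was at 9.57, 9.78 and 7.20 FPKM in AA and at 5.57, 6.47 and 4.80 FPKM in HA, so that every AA value was above every HA value (log2 change 0.57, SE 0.24, adjusted p = 0.308). COL4A6 stayed between 1.83 and 2.74 FPKM in all 6 libraries. COL4A3, named by the reference list and 123 kb from COL4A4, was at 4.12, 4.26 and 3.67 FPKM in AA and at 1.29, 2.07 and 3.18 FPKM in HA, also without overlap (log2 change 0.70, adjusted p = 0.323).

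The proportions of collagen IV chains were compared within libraries by exact permutation tests, in which 3 against 3 libraries cannot give a 2-sided p below 0.1. The ratio of COL4A5 to COL4A1 was 0.147, 0.0736 and 0.146 in AA and 0.235, 0.235 and 0.153 in HA (exact p = 0.1). The ratio of COL4A2 to COL4A1 was 1.44, 1.22 and 1.19 in AA and 1.14, 1.15 and 1.15 in HA (exact p = 0.1). Neither ratio overlapped between the groups, although the level of COL4A1 did. The ratios given here and below were chosen after the levels had been seen, and adjusted over the 9 computed, each exact p of 0.1 became 0.225.

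Of the laminins, LAMB2 and LAMC1 were the most abundant chains by FPKM. LAMB2, a beta chain, was at 103, 85.9 and 76.8 FPKM in AA and at 62.5, 70.0 and 94.7 FPKM in HA. LAMC1, the gamma chain of most laminins, was at 66.5, 69.2 and 80.9 FPKM in AA and at 76.5, 61.8 and 76.1 FPKM in HA. Both overlapped between the groups, and the interval for LAMC1 ran from −0.36 to 0.40 around a log2 change of 0.02. LAMA2, an alpha chain whose row spans 31337 bp and was the only alpha chain named in the table, was at 32.6, 38.5 and 53.4 FPKM in AA and at 43.4, 36.1 and 22.4 FPKM in HA.

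LAMB1, the other common beta chain, was the laminin that differed most. It was at 3.26, 9.04 and 5.94 FPKM in AA and at 1.67, 1.58 and 1.18 FPKM in HA, with no overlap. Its mean was 6.08 ± 2.90 FPKM in AA and 1.47 ± 0.26 FPKM in HA (SD, n = 3), a log2 change of 1.44 (SE 0.36, limma adjusted p = 0.120). The ratio of LAMB1 to LAMB2 was 0.0318, 0.105 and 0.0774 in AA and 0.0266, 0.0225 and 0.0124 in HA (exact permutation p = 0.1, the smallest that 3 against 3 allow), so that LAMB2 stayed far above LAMB1 in every library. LAMC3, a gamma chain, was not tested because of its low level, at 1.07, 1.02 and 0.913 FPKM in AA and 0.236, 0.325 and 0.365 FPKM in HA. LAMB3 stayed at or below 1.06 FPKM, and LAMA3 and LAMA4, named by the reference list, reached at most 0.310 and 1.15 FPKM.

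The linkers of the 2 networks were unequal in level. NID1 did not exceed 0.537 FPKM in any library, and NID2 was at 6.03, 1.95 and 5.87 FPKM in AA and at 2.99, 4.49 and 5.10 FPKM in HA, with overlap. HSPG2, the gene of perlecan, has no name in the table. By the reference list it was at 356, 216 and 142 FPKM in AA and at 139, 166 and 255 FPKM in HA, with the highest mean over all 6 libraries of any matrix gene (212 FPKM). Its groups overlapped (log2 change 0.29, 95% interval −0.51 to 1.10, adjusted p = 0.723), and like COL4A1 and COL4A2 it was high in AA 1, AA 2 and HA 3. Without AA 1 its log2 change was −0.04.

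Of the 27 interstitial collagens 7 were tested, with a median log2 change of 0.45. At an unadjusted p of at most 0.05, 3 were higher (9.48% of all genes tested) and 1 was lower (6.14%). The 1 that was lower is a row of uncertain name, described below as the row named COL22A1, which is also part of the median, of the sums and of the counts over the 26 genes. The median was 0.08 without AA 2, the library in which 6 of the 7 genes had their highest value. Fibrillar collagens were low beside collagen IV. COL5A2, a chain of the collagen that nucleates fibrils, was the highest of them at 34.7, 54.4 and 37.8 FPKM in AA and at 20.7, 24.5 and 18.2 FPKM in HA. The lowest AA value was above the highest HA value, with a mean of 42.3 ± 10.6 FPKM in AA and 21.1 ± 3.16 FPKM in HA (SD, n = 3; log2 change 0.95, SE 0.22, adjusted p = 0.1004).

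COL3A1, which lies 17.1 kb from COL5A2 on chromosome 15 and encodes the fibrillar collagen of soft tissues, overlapped between the groups at 3.34, 13.4 and 8.34 FPKM in AA and 6.76, 4.41 and 4.44 FPKM in HA. COL1A2, a chain of collagen I, was at 2.48, 5.75 and 2.42 FPKM in AA and at 2.14, 2.53 and 2.11 FPKM in HA, where only AA 2 stood apart. The row of its partner COL1A1 spans just 526 bp and jumped from 0 FPKM in AA 3 and HA 1 to 13.3 FPKM in AA 2. Without AA 2 its log2 change went from 0.34 to −0.71, neither called. COL5A1, the partner of COL5A2, reached at most 0.794 FPKM, and collagen VI chains COL6A2, COL6A3 and COL6A5 stayed below 1 FPKM in every library.

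COL12A1 had the largest difference of all 26 tested matrix genes. It encodes the FACIT collagen XII, which decorates the surface of collagen I fibrils. It was at 155, 377 and 88.3 FPKM in AA and at 8.85, 9.14 and 9.11 FPKM in HA. In this row the HA libraries were nearly equal and the AA libraries spread over a wide range, all far above HA. The mean was 207 ± 151 FPKM in AA and 9.03 ± 0.16 FPKM in HA (SD, n = 3), a ratio of 22.9 and a log2 change of 4.11 (SE 0.45, 95% interval 3.09 to 5.14, limma adjusted p = 0.0568, and 0.0364 with the number as a block). Leaving out AA 2 gave a log2 change of 3.55 with an adjusted p of 0.0170, and leaving out AA 3 gave 4.60 with an adjusted p of 0.0263, while leaving out any other library gave no call.

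The named COL12A1 row covers only 3940 bp of chromosome 1 (chr1:101694402-101698341). The row that the reference list also names COL12A1 begins 28.3 kb further along the same strand (chr1:101726688-101890065) and has the same span in the table as COX7A2, a gene on the other strand. It was at 121, 245 and 64.7 FPKM in AA and at 11.9, 4.61 and 3.86 FPKM in HA, with a log2 change of 4.15 (SE 0.51, adjusted p = 0.0568, and 0.0364 with the number as a block or 0.0263 without AA 3). The order of the AA libraries, with AA 2 highest and AA 3 lowest, was the same in both rows. The HA values, nearly equal in the named row (SD 0.16 FPKM), spread more in the other row (SD 4.45 FPKM). These rows are parts of 1 gene and are not independent evidence.

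COL9A2, a chain of the FACIT collagen IX known from cartilage, was the most abundant interstitial collagen by mean FPKM. It was at 151, 225 and 115 FPKM in AA and at 44.4, 56.5 and 70.6 FPKM in HA. The groups did not overlap, with means of 164 ± 56.1 and 57.2 ± 13.1 FPKM (SD, n = 3), a ratio of 2.87 and a log2 change of 1.47 (SE 0.27, limma adjusted p = 0.0624). The adjusted p was 0.0471 without AA 3, 0.127 to 0.218 without any other library and 0.117 with the number as a block. COL9A1, a partner chain, was listed at 0 in all 6 libraries.

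The row named COL22A1 needs its position beside its values. It lies on chromosome X (chrX:103689319-103704424), 6.42 kb from COL4A5 and on the same strand, whereas the reference list places COL22A1 on chromosome 4. A row there that the list names COL22A1 did not exceed 0.338 FPKM. The chromosome X row was at 13.4, 10.0 and 18.1 FPKM in AA and at 22.6, 23.9 and 22.9 FPKM in HA, every AA value below every HA value (log2 change −0.74, SE 0.23, adjusted p = 0.182). Its ratio to COL4A5 overlapped between the groups, at 0.588, 0.760 and 1.14 in AA and 0.890, 1.02 and 0.813 in HA (exact permutation p = 0.6). Of the 52 genes, this row was the only one that the reference list places on another chromosome, and its name is kept here only as the name of the row.

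The other interstitial collagens were near the lower limit. COL8A1, a short-chain collagen, reached 4.77 FPKM in AA 3 and 1.64 FPKM in AA 1 but was at 0.398 FPKM in AA 2, within the range of 0.305 to 0.745 FPKM of the HA libraries. COL10A1, known from the growth plate, was at 0.426, 0.954 and 0.318 FPKM in AA and listed at 0 in all HA libraries. COL14A1, another FACIT collagen, was between 0.523 and 1.19 FPKM in all libraries. COL9A1, COL26A1 and COL28A1 were the 3 genes listed at 0 throughout.

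Of the 12 glycoproteins and proteoglycans 9 were tested, with a median log2 change of 0.10 (−0.01 with quantile normalization). At an unadjusted p of at most 0.05, 2 were higher (9.48% of all genes tested) and 1 was lower (6.14%). The fibrillins, which build the microfibrils of elastic fibres, divided. FBN1 was at 9.17, 10.23 and 13.1 FPKM in AA and at 12.5, 10.3 and 8.52 FPKM in HA, intermixed, with a log2 change of 0.05 (95% interval −0.50 to 0.59). FBN2 was at 3.24, 2.89 and 6.90 FPKM in AA and at 14.8, 10.7 and 15.9 FPKM in HA, the only matrix gene lower in AA at an adjusted p of at most 0.1. Its mean was 4.34 ± 2.22 FPKM in AA and 13.8 ± 2.76 FPKM in HA (SD, n = 3), a log2 change of −1.53 (SE 0.33, limma adjusted p = 0.0851). The adjusted p was 0.0454 without AA 3, 0.182 to 0.276 without any other library and 0.1403 with the number as a block.

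The ratio of FBN2 to FBN1 was 0.353, 0.282 and 0.528 in AA and 1.18, 1.04 and 1.87 in HA (exact permutation p = 0.1, the smallest possible). FBN2 thus lay below FBN1 in all 3 AA libraries and above it in all 3 HA libraries. Other genes of elastic fibres were less uniform. FBLN5 was between 1.903 and 3.996 FPKM in all libraries with overlap. FBLN1, named by the reference list and a fibulin of basement membranes and elastic fibres, was at 46.8, 49.4 and 28.1 FPKM in AA and at 14.7, 11.9 and 22.0 FPKM in HA, without overlap (log2 change 1.30, SE 0.29, adjusted p = 0.0943). ELN, the gene of elastin, reached at most 0.166 FPKM by the same list, and FBLN2 at most 0.753 FPKM.

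Among the small leucine-rich proteoglycans, BGN (biglycan) was at 10.1, 11.3 and 4.99 FPKM in AA and at 2.93, 3.10 and 3.57 FPKM in HA, without overlap (log2 change 1.16, SE 0.32, adjusted p = 0.144). DCN (decorin) was at 4.02, 23.3 and 9.15 FPKM in AA and at 6.11, 2.15 and 3.71 FPKM in HA. AA 1 lay within the HA range, and the SE of 0.56 was the widest of this list (log2 change 1.18, adjusted p = 0.357). FMOD was between 0.648 and 1.86 FPKM in all libraries and LUM, near DCN on chromosome 5, reached at most 1.20 FPKM.

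THBS1, the adhesive glycoprotein thrombospondin 1 that is known as an inhibitor of angiogenesis and an activator of TGF-beta, was the most abundant matrix transcript of AA libraries 2 and 3. It was at 172, 609 and 273 FPKM in AA and at 31.3, 34.4 and 30.0 FPKM in HA. As in the named COL12A1 row, the HA libraries were nearly equal and all AA libraries were far above them. The mean was 351 ± 229 FPKM in AA and 31.9 ± 2.26 FPKM in HA (SD, n = 3), a ratio of 11.01 and a log2 change of 3.22 (SE 0.40, 95% interval 2.31 to 4.13, limma adjusted p = 0.0568, and 0.0364 with the number as a block). Leaving out AA 1, AA 2 or AA 3 gave log2 changes of 3.64, 2.73 and 3.31 with adjusted p of 0.0389, 0.0170 and 0.0434, and leaving out HA 1, HA 2 or HA 3 gave adjusted p of 0.0712, 0.197 and 0.127, with no call.

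The other adhesive proteins of the 52 genes were low. FN1, fibronectin, was at 2.64, 6.57 and 3.98 FPKM in AA and at 2.33, 2.42 and 2.50 FPKM in HA. The groups did not overlap, but AA 1 was close to HA (log2 change 0.59, SE 0.33, adjusted p = 0.433). THBS2, the close relative of THBS1, was not tested for its low level, at 0.592, 1.20 and 0.661 FPKM in AA and 0.219, 0.126 and 0.216 FPKM in HA. POSTN was at 0.235, 0.275 and 0.913 FPKM in AA and at 0.169, 0.109 and 0.107 FPKM in HA. TNC was between 0.426 and 1.97 FPKM in all libraries with overlap. SPARC, a collagen-binding protein named by the reference list and not among the 52, was at a higher level of 58.5, 62.6 and 49.1 FPKM in AA and 37.7, 54.3 and 63.1 FPKM in HA.

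**Figure D2:**
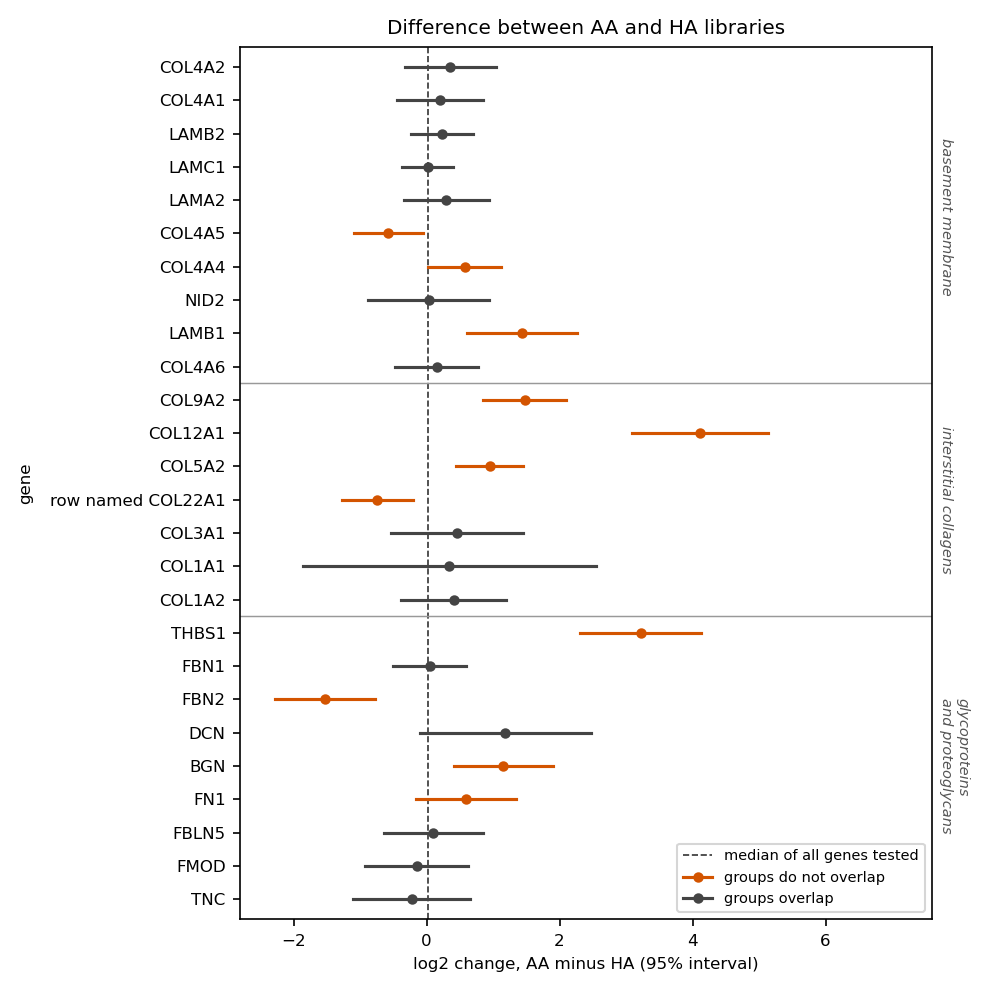
Log2 change (AA minus HA, limma) of the 26 tested matrix genes with its 95% interval, in the order of the plot of levels. Genes whose AA and HA libraries do not overlap are orange and the others are grey. Orange genes number 8 above HA and 3 below, where 11.9% and 9.1% of all genes tested lie. The dashed line is the median of all genes tested, 0.01.

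The summed FPKM of the 52 genes was 1198, 2009 and 1086 in AA and 638, 617 and 837 in HA. The basement membrane list summed to 624, 630 and 487 FPKM in AA and to 452, 420 and 632 FPKM in HA, with overlap. The interstitial collagens summed to 367, 707 and 279 FPKM in AA against 108, 128 and 135 FPKM in HA, and the glycoproteins and proteoglycans to 206, 672 and 319 FPKM against 77.1, 68.3 and 70.3 FPKM, both without overlap. The basement membrane list therefore took 52.1%, 31.3% and 44.9% of matrix FPKM in AA and 70.9%, 68.1% and 75.5% in HA.

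Single genes took large shares of these sums. COL12A1 took 12.9%, 18.8% and 8.13% of matrix FPKM in AA and 1.39%, 1.48% and 1.09% in HA. THBS1 took 14.4%, 30.3% and 25.1% in AA and 4.91%, 5.58% and 3.59% in HA. COL4A1 and COL4A2 together took 31.4%, 19.8% and 21.9% in AA and 36.2%, 34.5% and 47.3% in HA. These shares describe genes already seen to differ, the reference-named rows are not in them, and no test was run on them.

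**Figure D3:**
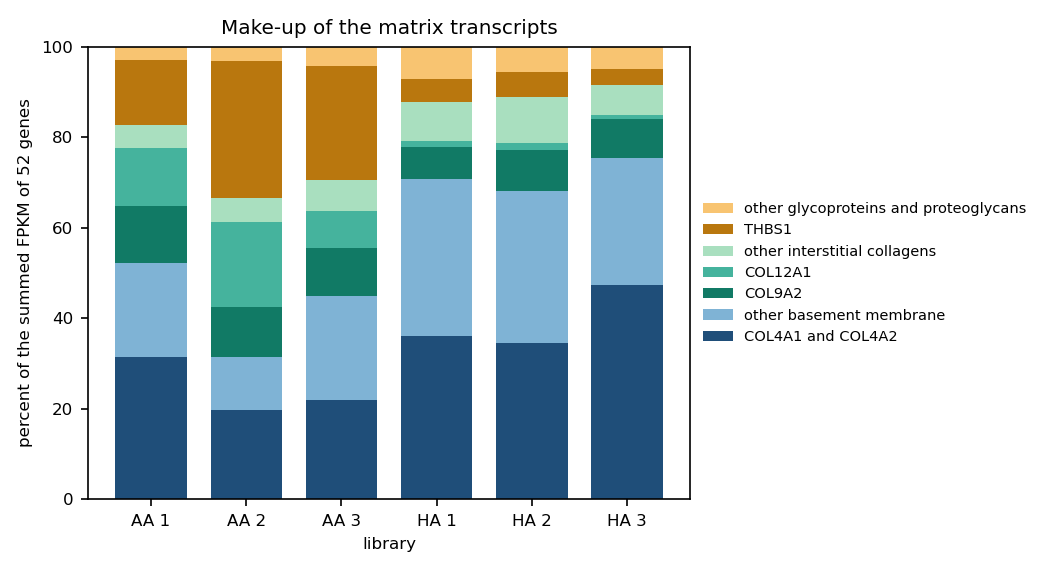
Percent of the summed FPKM of the 52 matrix genes taken by single genes and by the rest of each list, 1 bar per library. The 2 blue segments, the basement membrane list, fill 68.1% to 75.5% of the HA bars and 31.3% to 52.1% of the AA bars, and the THBS1 segment fills 14.4% to 30.3% of the AA bars.

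Collagen chains need enzymes and chaperones before they leave the cell, and cross-linking enzymes after. The table held 24 such genes, of which 18 were tested with no call. At an unadjusted p of at most 0.05, 2 were higher in AA and 0 lower, but 2 of the 18, LOX of these and PCOLCE2, were tested only because AA libraries reached 1 FPKM, so nothing is read from the count. The median log2 change was 0.11, and −0.04 without AA 3 and 0.04 without AA 1. SERPINH1, the collagen chaperone HSP47, was the most abundant at 1057, 850.1 and 987 FPKM in AA and 796, 1008 and 1224 FPKM in HA. BMP1, the procollagen C-proteinase, was at 457, 315 and 313 FPKM in AA and 301, 269.5 and 399 FPKM in HA, and P4HA1, a subunit of prolyl 4-hydroxylase, at 135, 137 and 195 FPKM in AA and 146, 130.1 and 108 FPKM in HA. All 3 overlapped between the groups.

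The 2 that were higher were cross-linking enzymes, named here after their values were seen. LOX, lysyl oxidase, was at 4.10, 10.4 and 7.79 FPKM in AA and was listed at 0 in HA 1 and at 0.818 and 0.980 FPKM in HA 2 and HA 3. It passed the filter through the AA libraries alone, so its difference is given as levels only. TGM2, transglutaminase 2, was at 63.8, 90.2 and 44.7 FPKM in AA and at 20.9, 42.5 and 35.6 FPKM in HA (log2 change 0.98, SE 0.32, adjusted p = 0.199). The other lysyl oxidases LOXL3 and LOXL4 overlapped between the groups, and LOXL1 reached at most 0.0234 FPKM.

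The table held 23 genes for matrix receptors, of which 19 were tested, again with no call, and at an unadjusted p of at most 0.05, 6 were higher in AA and 0 lower, of which ITGA2 was tested only because its AA libraries reached 1 FPKM, so nothing is read from the count. The median log2 change was 0.57, and 0.35 without AA 2, which was the highest library for 13 of the 19. ITGB1, the beta subunit shared by most integrins that bind collagen, laminin and fibronectin, was at 411, 413 and 642 FPKM in AA and at 663, 581 and 548 FPKM in HA. ITGAV was at 171, 395 and 306 FPKM in AA and 234, 282 and 154 FPKM in HA, also with overlap. ITGA6, the alpha subunit of laminin-binding integrins, was at 232, 218 and 303 FPKM in AA and at 187, 158 and 163 FPKM in HA, all AA libraries above HA (log2 change 0.55, SE 0.18, adjusted p = 0.201). Of the others, named after their values were seen, SDC1 and SDC3, proteoglycans of the cell surface, and CD44, the hyaluronan receptor, did not overlap between the groups, with log2 changes of 1.10, 1.19 and 1.75 and adjusted p of 0.144, 0.116 and 0.178. ITGA2, an alpha subunit of collagen-binding integrins, was at 1.72, 4.12 and 1.11 FPKM in AA and at 0.620, 0.504 and 0.364 FPKM in HA. DDR2 went the other way, at 4.95, 6.27 and 6.58 FPKM in AA and 8.05, 9.48 and 7.11 FPKM in HA. Its groups did not overlap (log2 change −0.41, limma adjusted p = 0.456). SDC2 and SDC4 overlapped between the groups, with log2 changes of −0.25 and 0.45.

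Markers of cell types were read in the same libraries, since matrix genes differ between the cells of the follicle wall. Among the granulosa markers, FSHR was higher in AA without overlap, at 88.3 to 92.0 FPKM in AA and 28.4 to 51.0 FPKM in HA. CYP19A1, the aromatase gene, was lower, at 128 to 307 FPKM in AA and 744 to 1052 FPKM in HA. NR5A2 was also lower without overlap, at 213, 130 and 337 FPKM in AA and 457, 494 and 470 FPKM in HA. FOXL2, INHA, INHBA, GATA4 and HSD17B1 overlapped between the groups. The 8 markers had a median log2 change of −0.57. Of the theca markers, CYP17A1, the enzyme that defines theca cells, stayed at or below 0.106 FPKM in AA and at or below 1.38 FPKM in HA. INSL3, a hormone of theca cells, was at 23.6, 11.3 and 11.6 FPKM in AA and 26.7, 23.4 and 46.7 FPKM in HA. NR2F2, a nuclear receptor of theca and stroma, went the other way, at 22.7, 41.3 and 25.9 FPKM in AA and 20.6, 16.2 and 14.6 FPKM in HA, without overlap and highest in AA 2. The 8 granulosa markers in the table summed to 5770, 2383 and 3745 FPKM in AA and 4768, 6339 and 10531 FPKM in HA, and the 6 theca markers to 126, 85.9 and 108 FPKM in AA and 235, 367 and 342 FPKM in HA. The latter list holds LHCGR and STAR, which granulosa cells of large follicles express as well.

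Of the 6 fibroblast and stroma markers in the table none was tested. Their sum was 0.503 to 2.23 FPKM in AA and 0.364 to 2.89 FPKM in HA. TCF21 was at 1.46, 0 and 0.581 FPKM in AA and at 2.72, 0 and 0.284 FPKM in HA. FAP was at 0.689, 0.503 and 1.27 FPKM in AA and at 0.165, 0.239 and 0.141 FPKM in HA, without overlap. MFAP5 and PI16 were listed at 0 in all libraries, and DPT and COLEC11 did not exceed 0.125 and 0.269 FPKM. PDGFRA and THY1 had no row. The 7 smooth muscle and pericyte markers summed to 273, 445 and 250.4 FPKM in AA and to 97.4, 60.7 and 30.8 FPKM in HA, of which RGS5, a pericyte gene, made up 221, 326 and 203 FPKM and 66.7, 44.4 and 11.4 FPKM, while DES did not exceed 0.1999 FPKM. RGS5, ACTA2, TAGLN and PDGFRB were higher in AA without overlap, whereas NOTCH3, CNN1 and DES overlapped between the groups. The 9 leukocyte markers summed to 70.5, 207 and 37.5 FPKM in AA and 17.9, 6.74 and 7.39 FPKM in HA. C1QA made up 40.6, 121 and 13.1 FPKM of the AA sums and 6.28, 1.68 and 3.82 FPKM of the HA sums. The macrophage gene CD68 was at 8.87, 32.7 and 5.96 FPKM in AA and at or below 1.03 FPKM in HA. C1QA, CD68, CD14, AIF1, CSF1R and TYROBP were higher in AA without overlap, whereas PTPRC and C1QB overlapped between the groups. In AA 1, PTPRC was at 0.868 FPKM and C1QB at 0.334 FPKM, below their values of 1.20 and 0.755 FPKM in HA 1. A row named CD163, on another chromosome than the reference list gives, was listed at 0 throughout. The 7 endothelial markers summed to 11.3, 31.3 and 21.1 FPKM in AA and 7.47, 8.86 and 6.90 FPKM in HA. Only 3 of them were tested. PECAM1, CLDN5, VWF and TEK were higher in AA without overlap, with CLDN5 at 13.1 FPKM in AA 2. KDR, EGFL7 and EMCN overlapped between the groups, and EMCN was listed at 0 in AA 1 and AA 2.

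Pericyte, leukocyte and endothelial sums were thus all higher in each AA library than in each HA library, although some genes of each list overlapped between the groups. AA 2, the library with the highest COL12A1, THBS1, COL9A2, COL5A2, LAMB1 and BGN, also had the highest sums of all 3 lists. Within AA, the leukocyte sum, the pericyte sum and COL12A1 had the same order of libraries (AA 2, AA 1, AA 3), as did the endothelial sum and THBS1 (AA 2, AA 3, AA 1). These orders were compared after the values had been seen. With 3 libraries, and AA 2 highest for 14 of the 26 tested matrix genes, few orders are left, so nothing is read from the matches. The part of pericytes, leukocytes and endothelial cells in the matrix values was not tested, and in bulk RNA neither source of signal can be told from the other. The fibroblast sum overlapped between the groups, although FAP of that list did not.

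**Figure D4:**
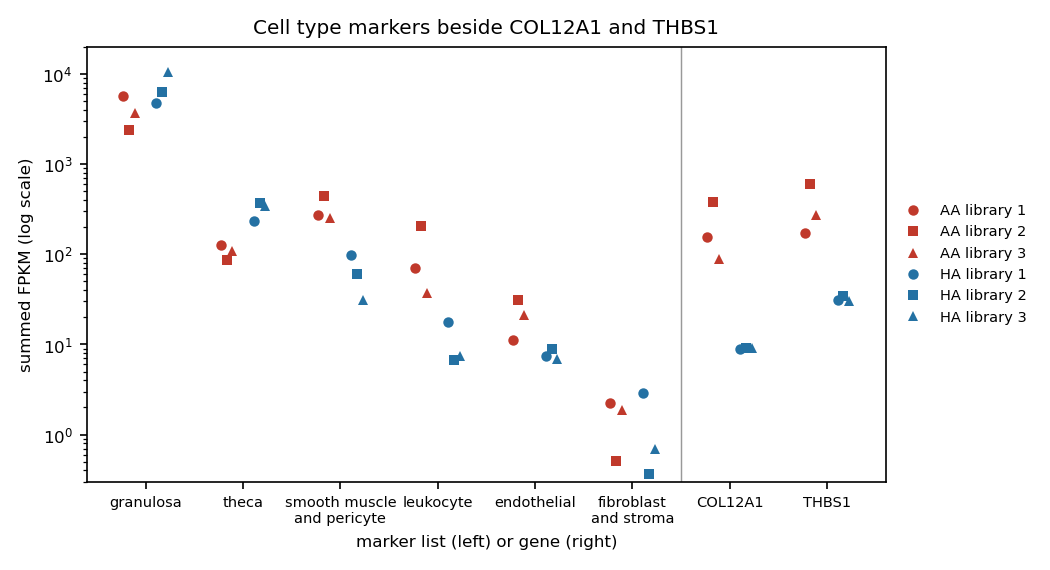
Summed FPKM of 6 lists of cell type markers (left of the line) and FPKM of COL12A1 and THBS1 (right), on a log axis, 1 point per library. Red AA points lie above blue HA points for the smooth muscle and pericyte, leukocyte and endothelial lists as for both genes, below them for theca markers, and among them for granulosa and fibroblast markers.

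Circular RNAs, which the authors counted as reads across back-splice junctions, gave a second readout of the same host genes. Of the 9362 circRNAs in the deposited table, 7 came from 3 of the 52 genes with 80 junction reads in all, and none came from a collagen. LAMC1 had 5, each read in 1 library only with 3 to 12 reads. LAMA2 had 1 with 10 reads in AA 1. The circRNA of LAMB3 (chr9:146585271-146598229) had 14, 16 and 0 reads in AA and 0, 0 and 8 reads in HA, and was the only one with enough libraries for a test (edgeR log2 change 1.91, adjusted p = 0.998). Of the 1014 circRNAs tested, 0% were called higher in AA and 0.0986% lower.

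Perlecan, by the reference list, was the matrix gene with the most junction reads. An exonic circRNA of HSPG2 of 591 nt (chr6:73933643-73936444) had 124, 43 and 62 reads in AA and 16, 19 and 83 reads in HA, 347 in all. Its groups overlapped (edgeR log2 change 0.96, unadjusted p = 0.231, adjusted p = 0.998), and per relative depth AA 1 and HA 3 were its highest libraries, as they were for HSPG2 FPKM. COL12A1, with its large difference in FPKM, had a single intronic circRNA by the reference list, with 4 reads in AA 1. At these read numbers a difference between the groups in circRNAs of the other matrix genes was not detectable.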

How the data were processed

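RNA of 6 libraries, 3 AA and 3 HA pools, was used. RNA was depleted of rRNA and libraries were made with a stranded kit, and whether gene counting used the strand is not given in the sources used here. FPKM were deposited by the authors from TopHat and Cufflinks, on Sscrofa10.2 (susScr3) per the labels. The deposited gene table also holds values the authors call counts, which are not whole reads but a scaled signal, with deposited totals of 12874895 to 14336027 per library, and these served only to describe depth. Raw counts of back-splice junction reads and log2 values were deposited by the authors for circRNAs, and the log2 values equal log2 of the count plus 1 constant per library for mapped reads, from which relative depths of 0.695 to 1 were read. All value columns were matched to samples by date and group (0 columns not used).

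FPKM were tested with limma 3.58.1 (trend, R 4.3.3) on log2(FPKM + 1), without a block since the study's methods use none. The study's methods name no test for genes. For circRNA counts the quasi-likelihood test of edgeR 4.0.16 was used (library sizes from the mapped-read constants, at least 2 reads in at least 3 libraries), with DESeq2 1.42.0 as an alternative. Ratios used exact 2-sided permutation tests. Both tests were also run on simulated data with 200 changed genes or circRNAs. The simulated libraries were alike in spread, so this does not bear on data where AA 2 stands apart. In the labels, an AA and an HA library of one number share a date, without saying what the date marks, and the number was therefore run as a block in an alternative. The study's sows were slaughtered in 3 batches on 3 days, and its methods do not state which batch a library came from. The deviations of same-numbered libraries from their group means correlated at −0.29, 0.00 and −0.40 over genes. Those of AA 1 and HA 3 correlated at 0.40 and those of AA 3 and HA 1 at 0.305.

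The genes and lists were chosen with earlier results of these data known. Named were all called genes, up to 3 genes of each role with the highest mean FPKM, the 10 genes with the smallest p, partner chains, and for enzymes and receptors the 3 of highest mean, and others are named as chosen after their values. Gene names came from the table and, for 14 rows, from the reference list of Sscrofa11.1, of which 6 were tested. Collagens, laminins, markers and enzymes with no row under either name, such as COL18A1, LAMA1 and LAMA5, were not analysed here, and no sequence was read. Alternatives were the block, another pseudocount, filter, scaling or trend setting, and leaving out each library. The thresholds of adjusted p 0.1 and unadjusted p 0.05 were added after seeing the data.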

Additional observations from a re-analysis of the deposited data

How the results depend on the processing

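Genes called higher in AA numbered 13 with the replicate block (0 lower), 198 (45 lower) with the adjusted threshold at 0.1 and 1043 (675 lower) with an unadjusted one of 0.05, and 0 to 75 higher and 0 to 22 lower on leaving out 1 library, most without AA 3. The block added 1 interstitial collagen (COL12A1, adjusted p 0.0364) and 1 glycoprotein (THBS1, 0.0364) and changed no other call among the matrix genes. With the adjusted threshold at 0.1, 2 interstitial collagens, 1 glycoprotein and 1 synthesis gene were higher and 1 glycoprotein lower. The synthesis gene was LOX, which passed the filter through the AA libraries alone, so nothing is read from it. With the unadjusted one of 0.05, the counts higher and lower were 2 and 1 for basement membrane, 3 and 1 for interstitial collagens, 2 and 1 for glycoproteins, 2 and 0 for synthesis genes and 6 and 0 for receptors. Leaving out 1 library called 0 to 2 interstitial collagens, 0 to 1 glycoprotein higher and 0 to 1 lower, and 0 to 1 receptor (MRC2, without AA 3). The MRC2 row spans only 137 bp, and its AA 3 value (43.0 FPKM) lay below that of HA 3 (45.7 FPKM).

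The median log2 change of interstitial collagens was 0.22 with no filter, 0.95 with a mean of at least 5 FPKM and 0.083 to 1.02 on leaving out 1 library, and that of glycoproteins was 1.16 with a mean of at least 5 FPKM, 0.324 with no filter, −0.011 with quantile normalization and 0.078 to 0.374 on leaving out 1 library. These filters change which genes are tested. Differences near 0 turned sign: with quantile normalization COL4A6 (−0.026), NID2 (−0.127), FBN1 (−0.011) and FBLN5 (−0.068), with median-ratio scaling LAMC1 (−0.0082). On leaving out 1 library the log2 change ran from −0.083 to 0.072 for LAMC1, −0.184 to 0.441 for NID2, −0.708 to 1.21 for COL1A1, −0.084 to 0.177 for FBN1, −0.095 to 0.299 for FBLN5 and −0.361 to 0.038 for FMOD. Of the reference-named genes, HSPG2 was at −0.045 without AA 1 and SPARC at −0.050 without HA 1. None of these was called, and the cause was not tested. No scaling moved the median of all genes by more than 0.05, and no circRNA of a matrix gene was called under any alternative run. Genes below 1 FPKM in most libraries rest on little signal and were tested only in the fit with no filter.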
